A study of Mus musculus with 18 samples.

Results

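Imprinted genes are genes used mainly from the copy of a single parent. A list of 50 of them, built around necdin (*Ndn*) and spread over 21 imprinted domains, was looked up by gene name in a table of 12012 genes made from hippocampal cultures whose mice had (WT) or lacked (KO) the receptor gene *Fibcd1*. Of the 50 genes, 41 had a row. The other 9 (*Magel2*, *Asb4*, *Dlk1*, *Ddc*, *Phlda2*, *Ascl2*, *Airn*, *Slc38a4* and *Dcn*) had none, and since the lowest mean in the table was 40.7 normalized counts, they are treated here as below its floor. By the copy used, 20 of the 41 were assigned to the paternal class, 10 to the maternal class and 11 to a context-dependent class. The last class holds genes imprinted by isoform, tissue or cell type, or in another species. Classes and domains were assigned from general knowledge of mouse imprinting, and no allele was measured in these cultures.

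The study asked how cultured hippocampal neurons respond to chondroitin sulphate proteoglycans (CSPGs), glycoproteins of the extracellular matrix, and whether the response needs FIBCD1, a transmembrane receptor that binds acetylated sugars. The 8 libraries used here came from primary hippocampal cells of E18.5 embryos plated on a CSPG coating, 4 of *Fibcd1* WT genotype (WT_CSPG A to D) and 4 of *Fibcd1* KO genotype (KO_CSPG A to D) and harvested after 2 or 3 days in vitro (the sources differ on the day). The KO mice carry the Fibcd1tm1Lex allele in every cell, on a C57BL/6J background. The series labels 18 libraries, and 10 of them, the 5 WT and 4 KO libraries without CSPG and WT_CSPG E, were not analysed here, so no response to the coating itself is described. Each library is a separate preparation of cells, and the labels do not say how many embryos went into it or of which sex.

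Imprinting is set in the germ line by DNA methylation at control regions, and after fertilisation the mark keeps the copy of a single parent silent at the genes around it. Several imprinted domains are strongly used in the brain. The Prader-Willi/Angelman domain on mouse chromosome 7 is a well known example, with *Ndn*, *Snrpn*, *Mkrn3* and *Peg12* used from the paternal copy and *Ube3a* used from the maternal copy in neurons. Necdin is a protein of the MAGE family, abundant in neurons that have left the cell cycle, where it restrains growth and interacts with neurotrophin receptors.

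The reads counted over the table came to between 10099564 and 11174615 per WT_CSPG library and between 10541445 and 11647202 per KO_CSPG library. *Fibcd1* (chr2:31813290-31846005, minus strand, mm10) was at 54.3, 70.4, 60.1 and 182 normalized counts in WT_CSPG A to D and at 0.970, 0.932, 7.16 and 4.74 in KO_CSPG A to D, so each library matched its label. Neuron markers were at summed levels of 77313 to 82524 normalized counts in WT_CSPG and 77370 to 79976 in KO_CSPG, and 0 of these 9 genes passed the limma test (2 had an unadjusted p under 0.05). The summed level of 4 Y-linked genes was lower in every KO_CSPG library (878 to 1092) than in any WT_CSPG library (1557 to 1935), and each of the 4 passed the test. The genotype accounted for 89.8% of the variance of this Y-linked level, so a difference in the share of male cells and the *Fibcd1* genotype cannot be told apart here. WT_CSPG D stood apart in several genes, and its effect is given where it matters.

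The sequences around the annotated starts of 4 genes are shown because the results turn on them: *Ndn*, the imprinted gene that rose, *Snrpn* and *Mkrn3* of the same domain, which did not pass the test, and *Mest*, the gene that fell most among the imprinted genes that passed. Each window runs from 250 bases before to 50 bases after a RefSeq transcript start on GRCm38.p6, 5′ to 3′ on the strand of the gene. Capitals mark CGCATGCG, letters that the transcription factor NRF1 is known to bind and that read the same on both strands.
Ndn, chr7:62348027-62348326, plus strand: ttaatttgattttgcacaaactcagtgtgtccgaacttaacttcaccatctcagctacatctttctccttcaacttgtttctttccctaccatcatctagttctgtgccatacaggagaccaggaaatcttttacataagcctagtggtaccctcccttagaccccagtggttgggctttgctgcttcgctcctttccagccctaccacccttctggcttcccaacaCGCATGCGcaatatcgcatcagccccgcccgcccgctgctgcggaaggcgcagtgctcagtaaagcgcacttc
Snrpn, chr7:60005150-60005449, minus strand: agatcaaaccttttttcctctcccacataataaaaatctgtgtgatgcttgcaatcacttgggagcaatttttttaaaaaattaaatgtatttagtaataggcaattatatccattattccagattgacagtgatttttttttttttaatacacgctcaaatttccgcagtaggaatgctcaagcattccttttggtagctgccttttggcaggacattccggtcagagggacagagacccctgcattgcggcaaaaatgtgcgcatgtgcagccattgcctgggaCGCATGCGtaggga
Mkrn3, chr7:62420104-62420403, minus strand: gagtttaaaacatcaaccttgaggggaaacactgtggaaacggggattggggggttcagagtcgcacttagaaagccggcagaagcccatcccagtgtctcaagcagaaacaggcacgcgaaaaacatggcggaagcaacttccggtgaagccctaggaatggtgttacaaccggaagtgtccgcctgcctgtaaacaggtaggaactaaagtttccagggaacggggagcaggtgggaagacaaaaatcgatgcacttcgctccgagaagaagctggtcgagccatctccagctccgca
Mest, chr6:30737800-30738099, plus strand: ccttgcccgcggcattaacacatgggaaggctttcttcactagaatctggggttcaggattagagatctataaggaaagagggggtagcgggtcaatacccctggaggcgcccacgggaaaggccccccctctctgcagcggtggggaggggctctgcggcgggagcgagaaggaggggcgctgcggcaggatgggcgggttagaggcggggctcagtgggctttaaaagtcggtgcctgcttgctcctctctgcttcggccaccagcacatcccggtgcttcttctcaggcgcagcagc
A RefSeq window could be matched by symbol to 39 of the 50 genes, with 65 windows in all. The letters CGCATGCG stood in 7 of these 65 windows, against 1.87% of all 32851 windows of the RefSeq table. The windows that held them belonged to *Ndn*, *Nnat*, *Commd1* and *Snrpn*, all of whose 4 annotated starts had a copy. Thus *Ndn* and *Snrpn* share these letters although only the former passed the test. TGCCGC, letters bound by ZFP57, a zinc finger protein that maintains imprints, were found on either strand in 14 of the 65 windows (21.5%) and in 11.6% of all windows, among them those of *Mest*, *Zim1*, *Plagl1*, *Meg3* and *Snrpn*, and not that of *Ndn*. GCCATNTT, letters of YY1, stood in 3 windows (4.62% against 6.05% of all), and GGGGCGGGG, letters of the SP family, in 9 (13.8% against 11.4%). The windows of the imprinted genes held a median of 15 CpG, and all windows a median of 7. The *Ndn* window held 11 CpG. Matches of letters describe these windows only. The table's *Ndn* gene model starts 1708 bases upstream of the RefSeq start, at 62346569.

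*Ndn* rose in the KO_CSPG cultures. Its level was 1848, 1775, 1863 and 1825 normalized counts in WT_CSPG A to D and 2969, 2988, 3087 and 2998 in KO_CSPG A to D. The groups were far apart, with every KO_CSPG library above every WT_CSPG library. The means were 1828 ± 38.6 (SD, n = 4) and 3011 ± 52.5 (SD, n = 4), a ratio of 1.65, and the log2 fold change was 0.72 with a standard error of 0.03 (limma, adjusted p = 1.72e-14). Within a genotype the libraries agreed closely, with a coefficient of variation of 2.11% in WT_CSPG and 1.75% in KO_CSPG. The median over all genes was 5.504% and 5.33%, but most genes lie lower than *Ndn* (the median level was 419 normalized counts in WT_CSPG A). The imprinted genes nearest to *Ndn* in level were *Cd81* (2.38% and 5.10%), *Snrpn* (2.22% and 4.24%) and *Nap1l4* (1.67% and 1.58%). Such closeness was thus not particular to *Ndn*. By p *Ndn* ranked 2 among the 12012 genes, and by size it was the 6th largest increase among the genes called. The gene lies at chr7:62346569-62350262 on the plus strand as a single exon of 3694 bases, and no other annotated exon overlaps it. In whole cultures a change in the number of cells of a type cannot be told apart from a change in RNA per cell.

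The other 4 genes of the domain with a row did not pass the test, nor did any have an unadjusted p under 0.05. *Snrpn*, which encodes the SmN protein of spliceosomal particles, was at 2282, 2162, 2218 and 2228 normalized counts in WT_CSPG and 2177, 2126, 2281 and 2333 in KO_CSPG. These ranges overlapped, and the log2 fold change was 0.00 with a 95% interval of -0.07 to 0.08. *Ube3a*, the ubiquitin ligase lost in Angelman syndrome, was at 1866, 1920, 1884 and 1901 in WT_CSPG and 1858, 1947, 1796 and 1851 in KO_CSPG, with a log2 fold change of -0.02 (95% interval -0.09 to 0.05). *Mkrn3*, a ubiquitin ligase that restrains the onset of puberty, starts 71.0 kb from *Ndn* and was at 217, 220, 231 and 212 in WT_CSPG and 234, 208, 243 and 253 in KO_CSPG. KO_CSPG A, C and D lay above all WT_CSPG values and KO_CSPG B below them, and the log2 fold change was 0.09 (95% interval -0.07 to 0.24, adjusted p = 0.622). *Peg12*, a binding partner of the kinase GSK3, starts 115 kb from *Ndn* and was at 36.6, 39.0, 56.3 and 28.5 in WT_CSPG and 54.3, 43.8, 48.0 and 45.5 in KO_CSPG. Its groups overlapped and its interval was wide, with a log2 fold change of 0.29 (95% interval -0.08 to 0.66, adjusted p = 0.463). For *Ube3a*, 27.3% of the exon bases lie opposite another annotated gene, and reads there cannot be assigned to a single gene without strand. For *Snrpn*, 27.3% of the exon bases are shared with a gene on the same strand, and reads there could come from either gene.

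**Figure D1:**
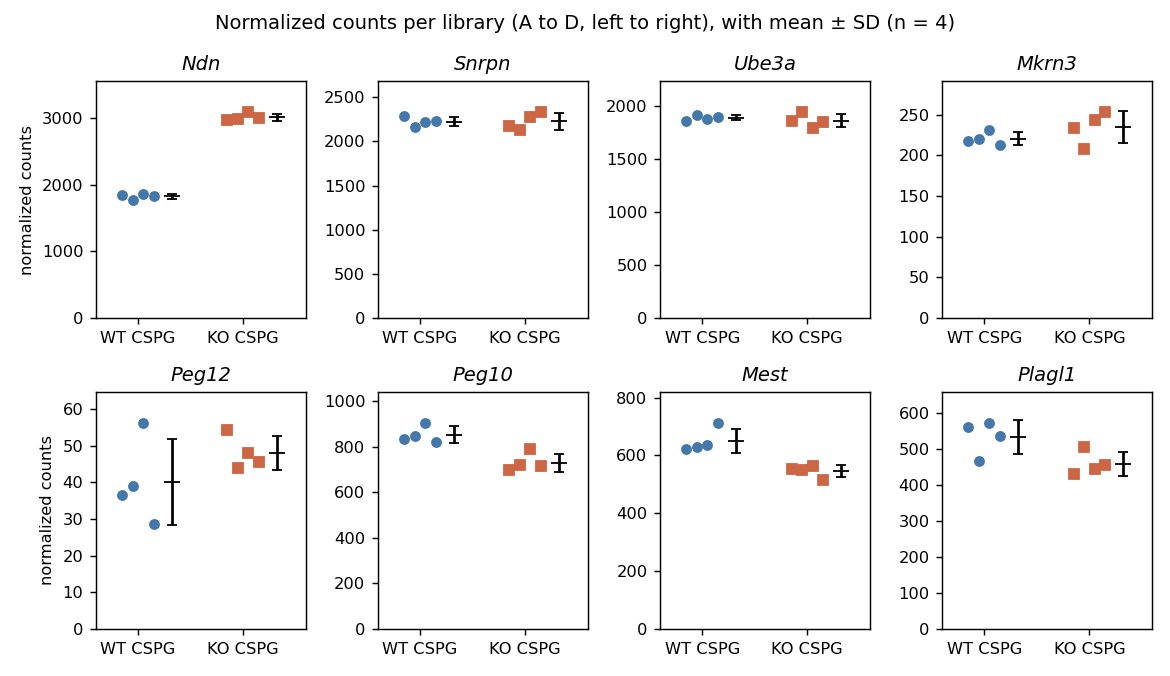
Normalized counts (vertical axes, from 0) of 8 imprinted genes in each WT_CSPG library (blue circles) and KO_CSPG library (orange squares), replicates A to D from left to right, with the mean ± SD (n = 4) in black. *Ndn* sits between 1775 and 1863 in WT_CSPG and between 2969 and 3087 in KO_CSPG, *Peg10* and *Mest* are lower in every KO_CSPG library, and the groups overlap for the other 5 genes.

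Ratios within a library do not depend on the scaling between libraries. The log2 ratio of *Ndn* to *Snrpn* was -0.30, -0.28, -0.25 and -0.29 in WT_CSPG A to D and 0.45, 0.49, 0.44 and 0.36 in KO_CSPG A to D. It was below 0 in each WT_CSPG library and above 0 in each KO_CSPG library, a difference of 0.72 (exact two-sided permutation test, p = 0.0286, n = 4 per group, the smallest p that 70 assignments allow). The ratio of *Ndn* to *Ube3a* differed by 0.74 in log2 (exact permutation p = 0.0286). In log2 the ratio of *Ndn* to *Peg12* differed by 0.42, with overlapping groups (exact permutation p = 0.0571). Over the 15 pairs tested, the lowest Benjamini-Hochberg adjusted value was 0.107 (exact permutation), so 0 pairs passed after adjustment, and this design could not have given a lower p for any single pair.

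The genes around *Ndn* on chromosome 7 were read for a difference that spans the region. Of the 36 other genes that start within 5 Mb of *Ndn*, 0 passed the test in the limma fit, against 2.88% of all genes. An unadjusted p under 0.05 was reached by 6 of the 36, against 16.2% of all genes. Neither count is far from the share of all genes. The log2 fold changes ran from -0.35 to 0.29, with a median of -0.04 and a lowest adjusted p of 0.0810 (limma). That lowest value belonged to *Snhg14*, the long host transcript of small nucleolar RNAs that runs antisense to *Ube3a*, with a log2 fold change of 0.16. *Gabra5*, a GABA receptor subunit gene on the far side of *Ube3a*, had a log2 fold change of 0.08 (adjusted p = 0.236). *Ndnl2*, a MAGE family relative of *Ndn* 2520 kb away, had -0.08. *Magel2*, which lies between *Ndn* and *Mkrn3*, had no row.

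**Figure D2:**
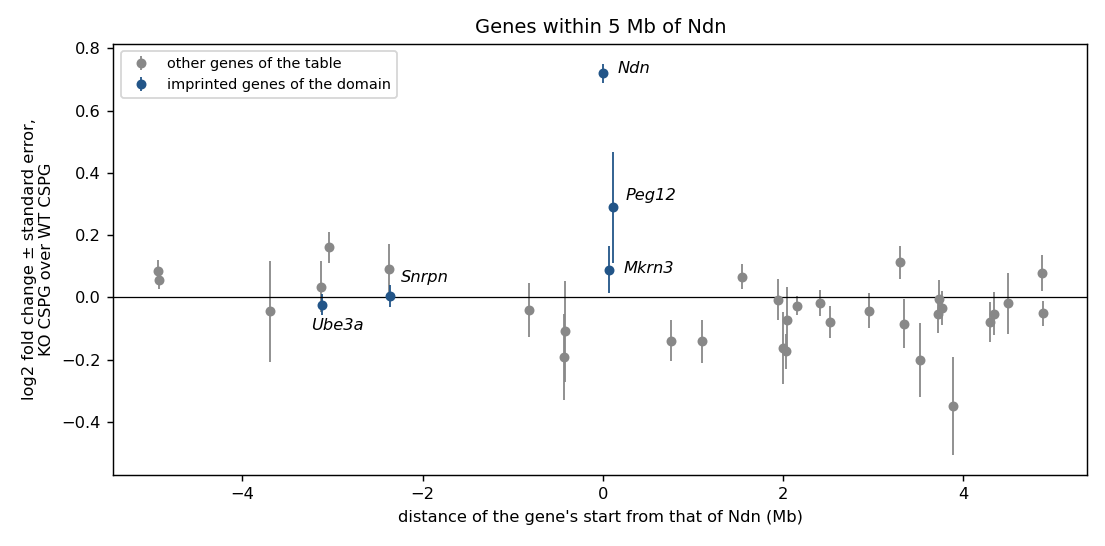
Log2 fold change (KO_CSPG over WT_CSPG, vertical axis, with the standard error) of the 37 genes of the table that start within 5 Mb of *Ndn*, by the distance of their start from that of *Ndn* in Mb (horizontal axis), imprinted genes of the domain in blue and other genes in grey. *Ndn* is at 0.72 and the other 36 genes lie between -0.35 and 0.29.

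Across all 41 imprinted genes with a row, 3 passed an adjusted p of 0.05 (7.32%), against 2.88% of all 12012 genes (346 genes). *Ndn* was the only gene called higher (1.09% of all genes were), and *Peg10* and *Mest* were called lower (1.79% of all genes were). These are small counts, and no test of the list was made. An unadjusted p under 0.05 was reached by 9 of the 41 (22.0%), *Ndn* above 0 and 8 genes below 0 (*Peg10*, *Mest*, *Plagl1*, *Zrsr1*, *Peg13*, *Zdbf2*, *Peg3* and *Rtl1*), against 16.2% of all genes. The WT_CSPG and KO_CSPG libraries did not overlap for 4 of the 41 (9.76%), *Ndn*, *Peg10*, *Mest* and *Zrsr1*, against 9.22% of all genes, a share close to this background. The log2 fold changes of the 41 had a median of -0.04, and 28 of them (68.3%) were below 0, while over all genes the median was 0.00 and 49.9% were below 0. Without *Ndn* the other 40 ran from -0.74 to 0.29.

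By the parental copy used, the 3 called genes were all in the paternal class, 1 higher and 2 lower among 20 with a row. That is 15% of the class, against 2.88% of all genes. Its median log2 fold change was -0.06, and -0.08 without *Ndn*, with 13 of 20 below 0. All 9 genes with an unadjusted p under 0.05 in the limma fit were in it (9 of 20, against 16.2% of all genes). In the maternal class 0 of 10 genes were called and 0 had an unadjusted p under 0.05 in the limma fit. Its median was -0.03 and its range -0.17 to 0.05, with 7 of 10 below 0. Of the 11 context-dependent genes 0 were called and 0 had an unadjusted p under 0.05. Their median was -0.02 and their range -0.11 to 0.29, with 8 of 11 below 0. The share below 0 was thus 65% in the paternal, 70% in the maternal and 72.7% in the context-dependent class. The difference between the classes was not tested. With 2.88% of all genes called, 0 calls among 10 or 11 genes would not be unusual.

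**Figure D3:**
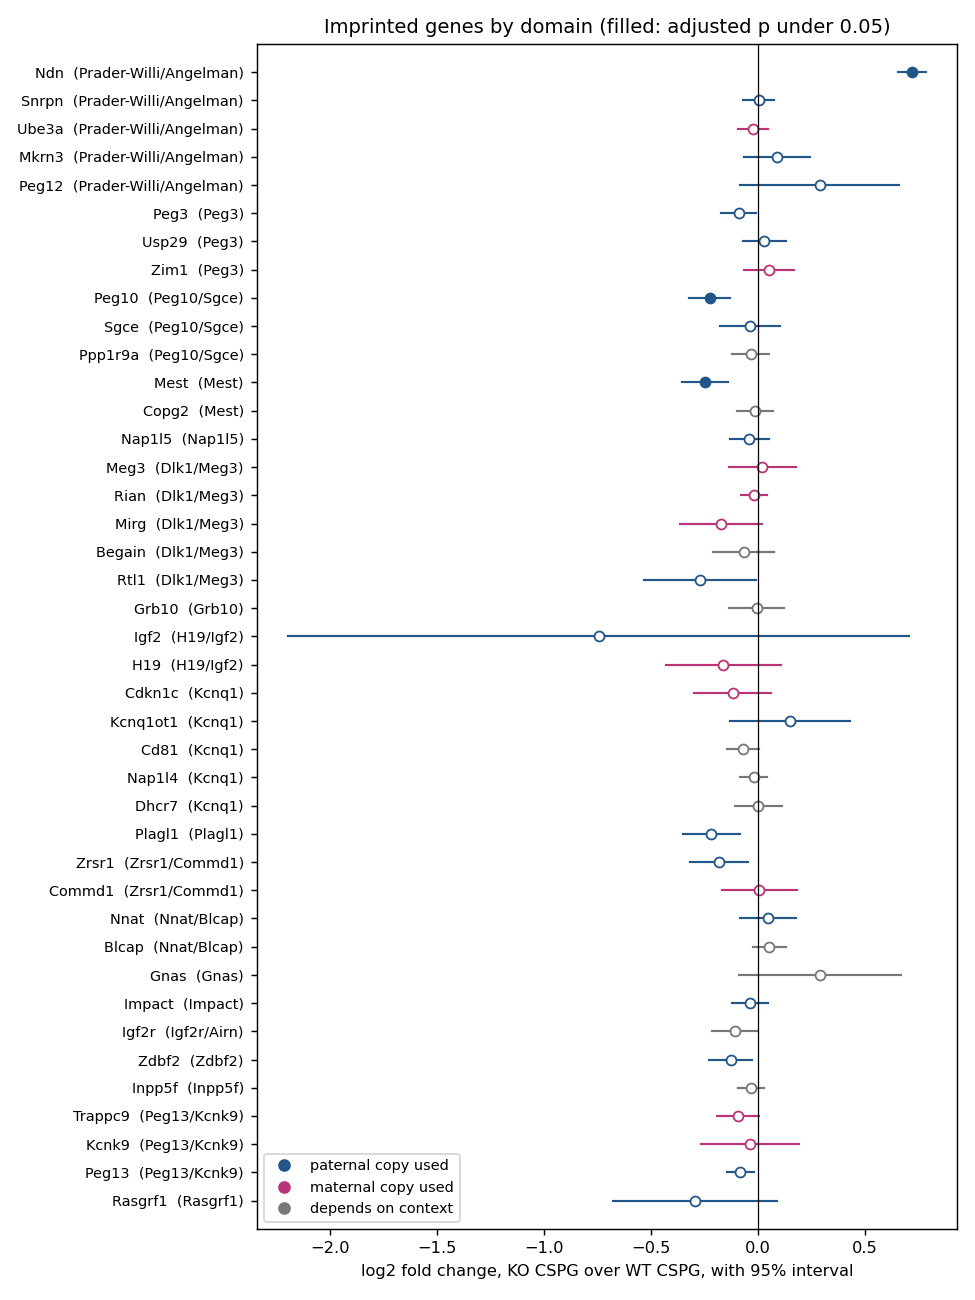
Log2 fold change (KO_CSPG over WT_CSPG, horizontal axis, with its 95% interval) of the 41 imprinted genes, listed by domain and coloured by the parental copy used, with filled circles for an adjusted p under 0.05. *Ndn* stands apart at 0.72, *Peg10* and *Mest* are at -0.23 and -0.25, and *Igf2* has the widest interval, from -2.19 to 0.71.

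*Peg10* fell in KO_CSPG. This gene, derived from a retrotransposon and essential for the placenta, was at 833, 846, 905 and 821 normalized counts in WT_CSPG and 695, 717, 787 and 713 in KO_CSPG. All KO_CSPG libraries were below all WT_CSPG libraries, with means of 851 ± 37.1 and 728 ± 40.5 (SD, n = 4 each), a ratio of 0.855 and a log2 fold change of -0.23 ± 0.05 (standard error; limma, adjusted p = 0.00716). *Sgce*, the epsilon-sarcoglycan gene that shares its start region with *Peg10* and points the other way, was at 265, 275, 283 and 268 in WT_CSPG and 286, 254, 250 and 276 in KO_CSPG, a log2 fold change of -0.04 (adjusted p = 0.858). The log2 ratio of *Peg10* to *Sgce* was between 1.62 and 1.68 in WT_CSPG and between 1.28 and 1.65 in KO_CSPG (difference -0.19, exact permutation p = 0.114), with KO_CSPG C inside the WT_CSPG range. *Ppp1r9a*, which encodes the synaptic scaffold neurabin, had a log2 fold change of -0.03, and *Asb4* had no row.

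*Mest* also fell. It encodes an enzyme-like protein of the alpha/beta hydrolase fold and was at 622, 628, 636 and 713 normalized counts in WT_CSPG and 554, 551, 564 and 517 in KO_CSPG. The groups did not overlap, although WT_CSPG D stood above the other 3, and the means were 650 ± 42.8 and 546 ± 20.7 (SD, n = 4 each). The log2 fold change was -0.25 ± 0.05 (standard error; limma, adjusted p = 0.00718), and it was -0.20 without WT_CSPG D, still past the threshold. *Copg2*, a coatomer subunit gene that overlaps the end of *Mest* on the opposite strand, was at 874, 933, 888 and 917 in WT_CSPG and 881, 927, 900 and 871 in KO_CSPG, a log2 fold change of -0.01. The log2 ratio of *Mest* to *Copg2* was between -0.57 and -0.36 in WT_CSPG and between -0.75 and -0.67 in KO_CSPG (difference -0.24, exact permutation p = 0.0286, adjusted 0.107). Of the exon bases of *Mest*, 23.1% lie opposite *Copg2*, and reads there could come from either gene. A miRNA, miR-335, lies within *Mest* on the same strand, and its mature 5p arm from RefSeq is shown, with the seed (bases 2 to 8) in capitals, because its host gene is among the 3 that were called. The miRNA itself was not measured.
mmu-miR-335-5p, chr6:30741314-30741336, plus strand: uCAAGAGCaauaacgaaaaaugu
Both calls of a lower level were lost in 2 alternative fits. With a prior variance that does not follow the mean, the adjusted p was 0.110 for *Peg10* and 0.101 for *Mest*. With the Y-linked level as a covariate the log2 fold changes were -0.22 ± 0.15 and -0.29 ± 0.17 (standard error), about as large as without it but with wider errors (adjusted p = 0.807 and 0.7505). *Ndn* stayed called in both fits (largest adjusted p 0.000289 over its 16 alternatives).

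Among the paternal genes with an unadjusted p under 0.05 and no call were *Plagl1*, *Zrsr1* and *Zdbf2*. *Plagl1*, a zinc finger transcription factor that regulates other imprinted genes, was at 561, 466, 573 and 535 normalized counts in WT_CSPG and 430, 504, 445 and 455 in KO_CSPG. The low WT_CSPG B and the high KO_CSPG B made the groups overlap, and the log2 fold change was -0.22 (adjusted p = 0.0707). It passed when either B library was left out (adjusted p = 0.00939 without WT_CSPG B and 0.0294 without KO_CSPG B). *Zrsr1*, an intronless splicing factor gene inside *Commd1*, was at 303, 305, 300 and 279 in WT_CSPG and 251, 249, 273 and 275 in KO_CSPG. Its groups were separate by a narrow margin, the log2 fold change was -0.18 (adjusted p = 0.151), and its log2 ratio to *Commd1* differed by -0.19 (exact permutation p = 0.0286, adjusted 0.107). *Zdbf2*, a zinc finger gene with a paternal copy active in brain, was at 938, 852, 867 and 878 in WT_CSPG and 767, 895, 781 and 800 in KO_CSPG, with KO_CSPG B within the WT_CSPG range and a log2 fold change of -0.13 (adjusted p = 0.178, and 0.0485 without KO_CSPG B).

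**Figure D4:**
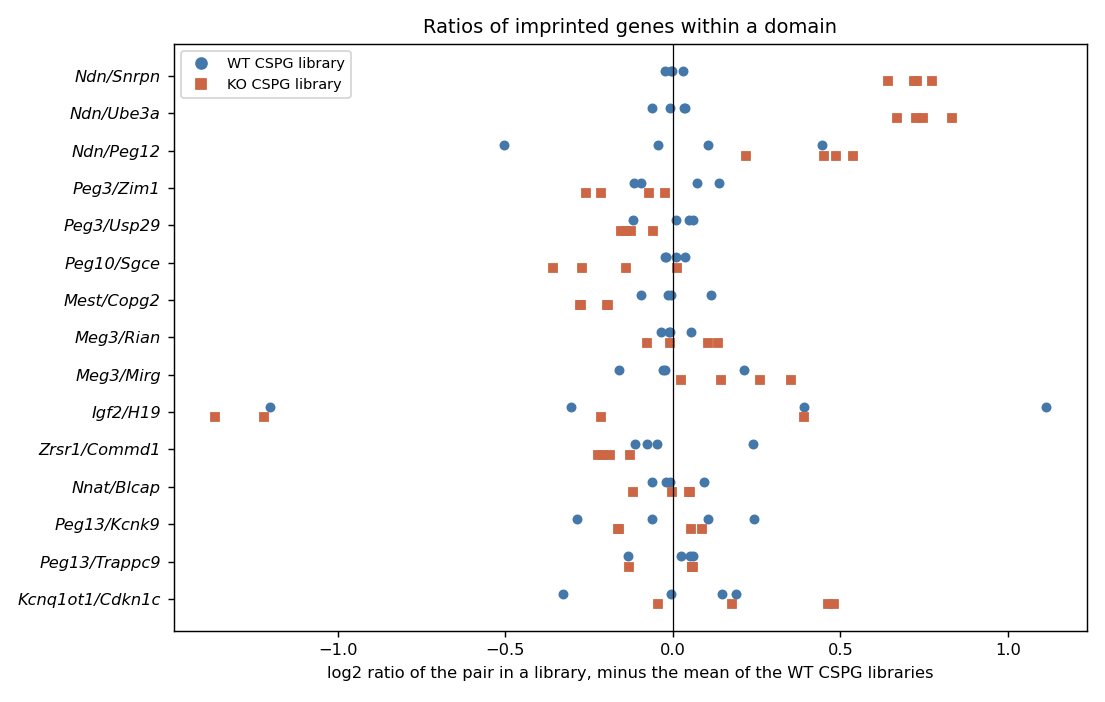
Log2 ratio of each of 15 pairs of imprinted genes in each library, minus the mean of the WT_CSPG libraries for that pair (horizontal axis), with WT_CSPG as blue circles and KO_CSPG as orange squares. The ratios of *Ndn* to *Snrpn* and to *Ube3a* are shifted by 0.72 and 0.74, those of *Mest* to *Copg2* and *Zrsr1* to *Commd1* by -0.24 and -0.19 with no overlap, and the groups of the other 11 pairs overlap.

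The Dlk1/Meg3 domain on chromosome 12 held some of the most abundant imprinted transcripts, and 0 of its 5 genes with a row were called (1, *Rtl1*, had an unadjusted p under 0.05). *Meg3*, a maternally used long noncoding RNA, was at 11615, 10719, 11624 and 12318 normalized counts in WT_CSPG and 11105, 10826, 12074 and 13014 in KO_CSPG. The groups overlapped, with WT_CSPG B below and KO_CSPG D above all libraries of the other group. The log2 fold change was 0.02 (95% interval -0.14 to 0.18). *Rian*, the next noncoding RNA of the domain and a host of small nucleolar RNAs, was at 6641 to 7167 in WT_CSPG and 6756 to 7164 in KO_CSPG, with a log2 fold change of -0.02 (95% interval -0.08 to 0.04). *Mirg*, which carries a large cluster of miRNAs (14 hairpins lie within it), was at 179, 166, 197 and 161 in WT_CSPG and 152, 137, 180 and 155 in KO_CSPG, a log2 fold change of -0.17 (adjusted p = 0.379). The log2 ratios of *Meg3* to *Rian* and to *Mirg* differed by 0.04 and 0.19 (exact permutation p = 0.457 and 0.143). *Rtl1*, a retrotransposon-derived gene used from the paternal copy, was at 98.2, 72.6, 98.0 and 90.7 in WT_CSPG and 71.8, 64.3, 80.8 and 79.6 in KO_CSPG, with overlapping groups and a log2 fold change of -0.27 (adjusted p = 0.288). *Begain*, which encodes a synaptic protein, had a log2 fold change of -0.07.

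In the Peg3 domain at the start of chromosome 7 the 3 genes encode zinc finger proteins and a ubiquitin protease. *Peg3* was at 1752, 1776, 1612 and 1660 normalized counts in WT_CSPG and 1510, 1686, 1625 and 1570 in KO_CSPG, a log2 fold change of -0.09 (adjusted p = 0.258). *Usp29*, used from the same paternal copy in the opposite direction, had 0.03, and the maternally used *Zim1* had 0.05. The log2 ratio of *Peg3* differed by -0.12 against *Usp29* and by -0.14 against *Zim1*, with overlapping groups for each pair (exact permutation p = 0.0571 and 0.171).

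The distal chromosome 7 domains held the growth factor gene *Igf2* and the growth inhibitor gene *Cdkn1c*. *Igf2* was at 34.5, 61.7, 23.3 and 105 normalized counts in WT_CSPG and 39.8, 53.1, 16.4 and 18.0 in KO_CSPG. It varied by several fold within each group, so that its log2 fold change of -0.74 had a 95% interval of -2.19 to 0.71 (adjusted p = 0.631), and without WT_CSPG D it was -0.37. *Ttr*, the leading marker of choroid plexus, a tissue that uses *Igf2* strongly, was at 331, 953, 11.6 and 3529 in WT_CSPG and 243, 115, 5.11 and 21.8 in KO_CSPG, highest in WT_CSPG D like *Igf2*. The 5 choroid plexus markers with a row summed to 1798 to 5696 in WT_CSPG and 1596 to 1928 in KO_CSPG, with 1 called lower (*Igfbp2*, log2 fold change -0.19, adjusted p = 0.0120, and 0.0703 without WT_CSPG C) and a median log2 fold change of -0.21, while 7 others of the 12 listed, *Otx2*, *Aqp1* and *Folr1* among them, had no row. Their part in the values of *Igf2* was not tested. Of the exon bases of *Igf2*, 62.8% are shared with another gene on the same strand. *H19*, the maternally used noncoding RNA beside it, was at 61.6, 68.2, 77.6 and 70.3 in WT_CSPG and 66.9, 58.7, 55.2 and 67.3 in KO_CSPG, with overlapping groups, a log2 fold change of -0.16 (adjusted p = 0.604) and a log2 ratio of *Igf2* to *H19* that differed by -0.60 (exact permutation p = 0.400).

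In the neighbouring Kcnq1 domain, 0 of 5 genes were called and 0 had an unadjusted p under 0.05. *Cdkn1c*, an inhibitor of cyclin-dependent kinases, was at 161, 171, 177 and 179 normalized counts in WT_CSPG and 144, 150, 177 and 165 in KO_CSPG, a log2 fold change of -0.12 (adjusted p = 0.559), and 30.7% of its exon bases lie opposite another gene. *Kcnq1ot1*, the paternal noncoding RNA that silences the domain, was at 141, 105, 150 and 138 in WT_CSPG and 152, 131, 190 and 123 in KO_CSPG, a log2 fold change of 0.15 (adjusted p = 0.647). Their log2 ratio differed by 0.27 with overlapping groups (exact permutation p = 0.229). *Cd81*, a tetraspanin, *Nap1l4*, a histone chaperone of the nucleosome assembly family, and *Dhcr7*, which catalyses the last step of cholesterol synthesis, had log2 fold changes of -0.07, -0.02 and 0.00.

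On chromosome 2, the chromosome of *Fibcd1*, 3 imprinted genes had rows, the nearest (*Blcap*) 126 Mb from *Fibcd1*. *Nnat*, which encodes neuronatin, a small membrane protein of developing neurons, was at 7541, 7390, 7906 and 8495 normalized counts in WT_CSPG and 8295, 7440, 8780 and 7916 in KO_CSPG. The groups overlapped, with a log2 fold change of 0.05 (95% interval -0.08 to 0.18), and its host *Blcap* also had 0.05. *Gnas*, the gene of the stimulatory G protein alpha subunit, was at 207, 205, 209 and 301 in WT_CSPG and 305, 218, 272 and 330 in KO_CSPG. WT_CSPG D was far above the other 3, and the log2 fold change was 0.29 (adjusted p = 0.452). Without WT_CSPG D it was 0.42 (adjusted p = 0.0273). With all libraries and the replicate letter as a block it was 0.29 with an adjusted p of 0.0470, so whether *Gnas* passed depended on the setting. Because 22.0% of the exon bases of *Gnas* lie opposite an antisense gene, its value is uncertain.

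Of the remaining domains none held a called gene. *Rasgrf1*, a guanine nucleotide exchange factor used from the paternal copy, was at 46.0, 48.7, 46.6 and 90.7 normalized counts in WT_CSPG and 45.6, 48.5, 38.8 and 48.3 in KO_CSPG. WT_CSPG D alone was high, and the log2 fold change was -0.29 with all libraries and -0.06 without it. *Peg13*, a noncoding RNA within an intron of *Trappc9*, was at 4763, 4488, 4830 and 4625 in WT_CSPG and 4303, 4568, 4458 and 4329 in KO_CSPG, a log2 fold change of -0.08 (adjusted p = 0.155). Its ratios to the maternally used *Trappc9*, a vesicle trafficking gene, and *Kcnk9*, a potassium channel gene, differed by 0.01 and -0.05 in log2 (exact permutation p = 0.543 and 0.714). *Inpp5f* (a phosphoinositide phosphatase) had -0.03, *Igf2r* (the receptor that clears IGF2) had -0.11, and *Grb10* (an adaptor of insulin signalling, used from the paternal copy in neurons) had -0.01. *Nap1l5* and *Impact*, paternally used genes of brain, were each at -0.04, and *Commd1* was at 0.01.

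Levels of different genes can be compared per kilobase of exon, as far as the gene lengths used hold. On this scale *Nnat* was the highest of the 41 genes, at 4358 normalized counts per kb as the mean of the 8 libraries. *Snrpn* followed at 1031 and *Peg13* at 962. In the maternal class *Meg3* was at 645, *Rian* at 397 and *Trappc9* at 123 normalized counts per kb. *Nap1l4* at 856, *Cd81* at 808 and *Inpp5f* at 722 led the context-dependent class. *Ndn* was at 495 in WT_CSPG and 815 in KO_CSPG, which moved it from below *Meg3* (640 in WT_CSPG) to above it (650 in KO_CSPG). This order rests on the lengths used, 3694 bases for *Ndn* and 18089 for *Meg3*, and other lengths could change it. The *Ndn* gene model starts 1708 bases upstream of the RefSeq start. At the low end *Kcnq1ot1* was at 1.67 over a gene of 84395 bases, *Rasgrf1* at 4.67 and *Igf2* at 7.68.

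**Figure D5:**
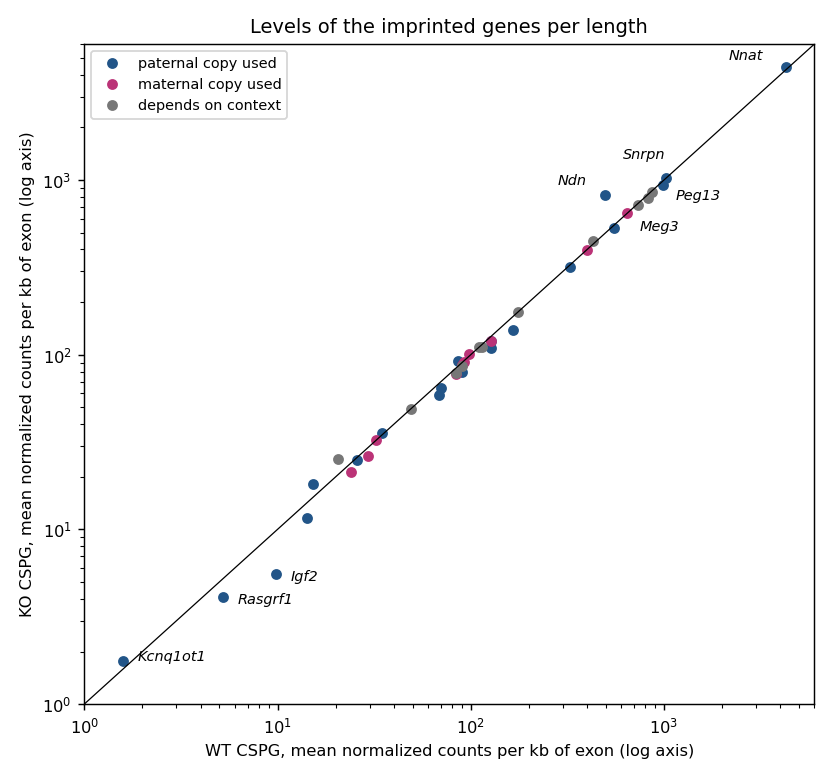
Mean normalized counts per kb of exon of the 41 imprinted genes in WT_CSPG (horizontal log axis) and KO_CSPG (vertical log axis), coloured by the parental copy used, with the line of equal levels. *Ndn* lies above the line at 495 and 815, *Nnat* is the highest at 4283 and 4433, and *Kcnq1ot1* is the lowest at 1.58 and 1.77.

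Genes that set, keep or read imprints were compared next. Of 22 listed genes for imprint maintenance (DNA methyltransferases, TET enzymes, ZFP57 and its partners, and chromatin regulators), 20 had a row. Of these, 0 were called higher and 1 was called lower, with a median log2 fold change of -0.02, while 2.88% of all genes were called. An unadjusted p under 0.05 was reached in the limma fit by 3 of the 20 (*Tet2*, *Arid4a* and *Arid4b*), against 16.2% of all genes. The called gene was *Tet2*, which encodes an enzyme that oxidises methylated cytosine, at 680, 617, 658 and 673 normalized counts in WT_CSPG and 523, 574, 609 and 586 in KO_CSPG. Its groups were separate, with a log2 fold change of -0.20 (limma, adjusted p = 0.0372), but the call was lost when any of 6 of the 8 libraries was left out (adjusted p up to 0.163). *Dnmt1*, the maintenance methyltransferase, had a log2 fold change of -0.04, *Zfp57* had 0.01, *Trim28*, its corepressor, -0.04, and *Ctcf*, the insulator protein of the H19/Igf2 domain, 0.00.

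Of 23 listed necdin partners and MAGE family genes, 21 had a row, 0 were called higher and 1 lower, with a median log2 fold change of -0.02. Over all genes 2.88% were called. An unadjusted p under 0.05 was reached in the limma fit by 3 of the 21 (*Foxo1*, *Trp53* and *Usp7*), against 16.2% of all genes. *Foxo1*, a transcription factor of insulin signalling, was the gene called, at 506, 513, 497 and 616 normalized counts in WT_CSPG and 452, 421, 394 and 442 in KO_CSPG. The groups did not overlap, with WT_CSPG D above the other 3, and the log2 fold change was -0.32 (adjusted p = 0.00681) and -0.24 without WT_CSPG D (adjusted p = 0.0152). The MAGE family genes *Maged1* and *Magee1* had -0.02 and 0.02, and *Ngfr*, a neurotrophin receptor bound by necdin, had -0.33 (adjusted p = 0.395). Among 41 further imprinted genes, 19 had a row and 1 was called, *Gab1*, an adaptor of receptor kinases, at 593 ± 44.9 in WT_CSPG and 511 ± 25.5 in KO_CSPG (SD, n = 4 each, log2 fold change -0.21, adjusted p = 0.0372, and up to 0.144 with the call lost on leaving out any of 6 libraries), and the median was 0.02. Of these 19 genes, 3 had an unadjusted p under 0.05 in the limma fit (*Gab1*, *Ampd3* and *Cobl*). Of 179 other genes that start within 1 Mb of a listed imprinted gene, 2 were called higher and 2 lower (2.23%, against 2.88% of all genes). They were *Smim17* near *Zim1* (0.42), *Osbpl1a* near *Impact* (0.16), *Cars* near *Nap1l4* (-0.22) and *Hivep2* near *Plagl1* (-0.26).

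The makeup of the cultures was read from marker lists. Oligodendrocyte lineage markers summed to 726 to 1012 normalized counts in WT_CSPG and 1310 to 1453 in KO_CSPG, with 2 of 5 called higher (*Olig1*, log2 fold change 0.59, and *Olig2*, 0.79) and a median log2 fold change of 0.64, so that this list was higher in the same libraries as *Ndn*. Among glutamatergic markers, *Prox1*, a granule cell factor, was called higher (log2 fold change 0.29), and *Neurod2* (-0.21) and *Neurod6* (-0.19) were called lower. None of the 7 GABAergic, 7 astrocyte, 6 microglia, 4 fibroblast, 3 Cajal-Retzius and 8 proliferation markers with a row was called in the limma fit (2, 1, 4, 1, 1 and 0 of them had an unadjusted p under 0.05), with median log2 fold changes of 0.04, 0.09, 0.16, 0.33, 0.20 and -0.02, and the 4 endothelial markers had no row. The part of the oligodendrocyte, glutamatergic and Y-linked differences in the level of *Ndn*, *Peg10* and *Mest* was not tested beyond the covariate given above.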

How the data were processed

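RNA of 8 hippocampal culture libraries (WT_CSPG and KO_CSPG, replicates A to D) was poly-A selected and sequenced as 50-base single reads by the authors, with a library kit that does not mark strand; the aligner and counter are not given in the sources used here, and the submitters' processing notes name DESeq2 and mm10. The authors deposited a normalized signal, in which the reads of each gene had been scaled by the size factor of their library, together with gene positions and a gene length (other). Columns with the authors' own DESeq2 comparison (fold change, standard error, statistic, p-values and calls) were not used. Each value was a whole multiple of 1 step per library (largest deviation 5.8e-11 reads), but no model for counts was run. No sample column was left unused (0), and the precision rests on 4 libraries per group at the depths given in the results. The limma p-values set a difference against the spread between these preparations. In that fit the variance of each gene is drawn towards a prior that follows the mean. They thus depend on the prior too: for *Ndn* the limma adjusted p was 1.72e-14 with the trend and 5.39e-05 without it.

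Values were transformed to log2(value + 1), so changes of low genes are understated, and a linear model was fitted in R 4.3.3 by limma 3.58.1 (trend and robust prior, 12012 genes, Benjamini-Hochberg adjustment over all of them). A gene was called at an adjusted p under 0.05. The fit was tested on simulated data with known changes. Ratios within a library were compared by an exact two-sided permutation test. Gene models were checked against GENCODE M21 (11997 identifiers found, 9960 at the same position), and sequences came from RefSeq on GRCm38.p6. The deposited length equalled the exon union for 32 of 41 imprinted genes.

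Named in the text are all imprinted genes that were called, those of the *Ndn* domain, the 3 highest per kb in each class, the genes of the pairs, called genes of the lists and *Fibcd1*. Further genes (*Plagl1*, *Zdbf2*, *Gnas*, *Rasgrf1*, *Ttr*, neighbours of *Ndn* and genes named from lists without a call) were added once their values had been seen. Some listed genes are not reported here. The members, domains and lists were chosen with earlier results of these data known, so no count over them is independent support. The labels do not say whether WT_CSPG and KO_CSPG libraries of the same letter belong together, and the main fit did not pair them. Their deviations from the group means correlated at -0.07, 0.10, 0.27 and -0.01 for A to D. A shared effect of a letter, largest for C, is therefore not excluded. With the letter as a block 429 genes were called, against 346 without it. Alternatives were pseudocounts of 0.1 and 10, a mean of at least 100, upper-quartile scaling, a prior without trend or without the robust step, the replicate block, the Y-linked level as a covariate and leaving out each library.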

Additional observations from a re-analysis of the deposited data

Results flagged for a closer look

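Among 112 sets of 4 libraries examined for a library far from the other 3, 6 stood out, and chance gives about 5.6 at 1 in 20. Of the 6, 5 were in WT_CSPG D. *Mest* was at 713 normalized counts there and at 622 to 636 in the other WT_CSPG libraries. *Gnas* was at 301 against 205 to 209. *Rasgrf1* was at 90.7 against 46.0 to 48.7. *Fibcd1* was at 182 against 54.3 to 70.4. *Foxo1*, from the list of necdin partners, was at 616 against 497 to 513. In WT_CSPG A, *Olig1* was at 369, below the 424 to 428 of the others. *Ndn* and *Peg10* had no such library in either group.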

How the results depend on the processing

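*Ndn* kept its direction and its call in all 16 alternatives, with log2 fold changes of 0.71 to 0.79 and adjusted p up to 0.000289. Without the variance trend 80 genes were called in all and 1 of the 41 (*Ndn*), with 0 lower, and with the Y-linked level as covariate 3 genes, again 1 and 0 lower. That covariate follows the genotype (89.8%). Leaving out each library gave 186 (without KO_CSPG A) to 576 (without WT_CSPG D) genes called, 3 to 5 of the imprinted genes, 1 to 2 higher and 2 to 4 lower. It also left the *Ndn* to *Snrpn* ratio at a difference of 0.70 to 0.74 with an exact p of 0.0571, the smallest possible then. With the replicate block, 429 genes were called, 2 imprinted genes were higher (*Gnas* was added, adjusted p = 0.0470), and the ratio differed by 0.716 (exact sign-flip p = 0.125, the smallest possible). The block changed no other call among the 41 genes, and the other pseudocounts, the filter, upper-quartile scaling and the prior without the robust step left the same 3 called. The 131 higher and 215 lower calls (37.9% higher) became 182 and 178 (50.6%) under upper-quartile scaling and 286 and 290 (49.7%) without WT_CSPG D. The cause of these changes was not tested. Genes without a call and near 0 changed sign in some alternatives, while *Ndn*, *Peg10* and *Mest* did so in 0. The planned edgeR and DESeq2 fits on reads recovered from the deposited values were not run. A mean of at least 100 leaves 36 of the 41 genes. Genes under the floor of 40.7 are not covered, and at levels such as those of *Peg12* or *Igf2* only large differences could be seen.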
